A study of Homo sapiens and Mus musculus with 4 samples.

Results

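The C/EBP family is described here through the ATF4 peaks that lie at its genes. Peaks were taken from 2 deposited lists where they overlapped a window that reached 50 kb to each side of a C/EBP gene, and 15 of 83961 listed peaks did so. Of these, 1 of 873 came from KG1a, a human cell line of acute myeloid leukaemia, and 14 of 83088 came from bone marrow cells of C57BL/6 mice. The genes were CEBPA, CEBPB, CEBPD, CEBPE, CEBPG and CEBPZ in human. In mouse, Cebpa, Cebpb and Cebpg were placed by approximate positions, and the other 3 orthologues were not analysed here.

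ATF4 binding had been measured by chromatin immunoprecipitation and sequencing (ChIP-seq), which pulls down DNA bound by a protein and reads it. The 4 groups of 1 library each were KG1a ATF4 ChIP, KG1a input, mouse bone marrow ATF4 ChIP and mouse bone marrow input. Both ChIP libraries used the same anti-ATF4 antibody, and inputs are chromatin taken with no antibody. KG1a cells were grown with 20% fetal bovine serum, and no treatment or genotype is given for any group. The labels do not state the age, sex or number of the mice, and bone marrow is a mixture of many blood cell types. Each list came from ChIP against input and holds only the place of each peak. Depth and peak height are unknown, and no value below has a replicate check.

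ATF4 and the C/EBP proteins belong to the basic leucine zipper (bZIP) family, whose members bind DNA as pairs. ATF4 pairs readily with C/EBP proteins, and such a pair binds a composite site with the letters of a C/EBP site on one side and of an ATF site on the other. C/EBP factors are known for steering blood progenitors into the granulocyte and monocyte lineages. CEBPZ shares the name but is not a bZIP protein: it was named for binding CCAAT boxes. Peak lists do not measure pairing, so whether ATF4 was paired with a C/EBP protein at any peak was not tested.

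The composite site was written as TGATGNAAT, where N is any base, and TGATGCAA holds its first 8 letters without the final T. These 8 letters are shown here because CEBPG carries them and so do several genes that had a KG1a peak. RefSeq promoter sequences (GRCh38.p14, 250 bases before to 50 after each start) covered 5 of the 6 genes with 7 promoters, and CEBPD was not among them. The 8 letters TGATGCAA, searched on both strands, were found in 1 of the 7, that of CEBPG at the second of its 2 listed starts. Below are those letters in CEBPG and in each of the 5 genes that held them and also had a KG1a peak centre within 1 kb of a start, with 10 bases to either side. Capitals mark the TGATGCAA letters, and each is written on the strand that carries them.
CEBPG: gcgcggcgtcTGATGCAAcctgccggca
AARS1: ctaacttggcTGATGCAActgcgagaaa
CHAC1: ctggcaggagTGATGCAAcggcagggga
HERPUD1: gggcacgggcTGATGCAAcccgccgcgt
S100PBP: cgagcccagcTGATGCAAcctggctgga
TARS1: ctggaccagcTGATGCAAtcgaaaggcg

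The CEBPG element lies at chr19:33374071-33374078 on the plus strand (GRCh38). It is 42 bases before the second listed start and 362 bases inside the gene, and exons are not part of the gene table used. Of the other 5, the elements lie at chr16:70289686-70289693 (plus strand) in AARS1, at chr15:40953262-40953269 (minus strand) in CHAC1 and at chr16:56931966-56931973 (minus strand) in HERPUD1. S100PBP holds it at chr1:32817348-32817355 and TARS1 at chr5:33440967-33440974, both on the minus strand.

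In those 5 genes the element lay inside the listed KG1a peak, between 0 and 136 bases from the peak centre. The genes were picked for a peak centre within 1 kb of a start, so this closeness was partly set by the choice. Of all 142 places of the element in promoters, 5 (3.52%) lay inside a listed peak. In HERPUD1, which encodes a protein of endoplasmic reticulum protein degradation, the distance was 0 bases. It was 22 bases in S100PBP and 39 bases in TARS1, the threonyl-tRNA synthetase gene. AARS1, the alanyl-tRNA synthetase gene, had 111 bases and CHAC1, a gene of glutathione breakdown, had 136 bases. CEBPG holds the same 8 letters, and the nearest listed KG1a peak centre was 90.5 kb away.

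CEBPG was therefore among the many holders of the element with no listed peak at the start. Of 15843 protein-coding genes with a promoter sequence, 143 (0.903%) held TGATGCAA, and 5 of these 143 (3.5%) had a peak centre within 1 kb of a start. Over all 15843 genes that share was 0.467%. These shares describe 1 list and were not tested. The absence of a listed peak says nothing about binding too weak for this list.

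The whole CEBPG promoter at this start is shown because it is the only C/EBP promoter with a match to any of the 4 stricter motifs. It is chr19:33373863-33374162, plus strand, from RefSeq, with the element in capitals.
CEBPG promoter: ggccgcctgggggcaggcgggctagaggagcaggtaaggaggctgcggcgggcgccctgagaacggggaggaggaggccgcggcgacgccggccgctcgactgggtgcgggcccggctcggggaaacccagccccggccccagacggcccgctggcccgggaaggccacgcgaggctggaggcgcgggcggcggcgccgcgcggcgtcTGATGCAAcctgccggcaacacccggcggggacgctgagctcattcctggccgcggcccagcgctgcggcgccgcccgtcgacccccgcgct

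The other motifs were TGATGNAAT (the composite site), TGACGTCA (the cAMP response element), TTGCGCAA (a palindromic C/EBP site) and TTNNGNAA. The last is a looser form, of which TTGCGCAA is a case. TGATGNAAT and TGATGCAA can cover the same bases. None of the 7 C/EBP promoters held any of the 5 motifs except for the CEBPG match to TGATGCAA. There the next letter is C, so CEBPG does not match TGATGNAAT. Among all 22199 promoters, 0.662% held TGATGNAAT, 0.676% held TGATGCAA, 2.26% held TGACGTCA, 0.203% held TTGCGCAA and 31.4% held TTNNGNAA. A KG1a peak centre within 1 kb of a start was found for 2 of the 139 genes with TGATGNAAT (1.44%). It was found for 2 of the 475 with TGACGTCA (0.421%), 22 of the 5861 with TTNNGNAA (0.375%) and 0 of the 40 with TTGCGCAA. Of these shares, that of TGATGCAA, 5 of 143 genes (3.5%), was the highest. The counts of 5 and 2 are small, and the order was not tested. Bases G and C made up 76.7 to 80.7% of the promoters of CEBPA, CEBPB and CEBPG, 62.7% in CEBPZ and 57.7% in CEBPE, against a median of 62.3% over all promoters. A match, or its absence from this window of 300 bases, is a description of the letters and not of binding.

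The comparison of KG1a ATF4 ChIP with KG1a input asks where ATF4 sat in the leukaemia cells. A single C/EBP gene, CEBPA, had a listed peak within 50 kb. CEBPA encodes the factor that commits progenitors to the myeloid lineage and is recurrently mutated in acute myeloid leukaemia. Its peak, chr19:33283466-33283775 (GRCh38), is 310 bp wide and overlaps no gene of the RefSeq table. CEBPA is read from the minus strand, so the peak centre lies downstream, 18.9 kb from the start of the gene and 16.3 kb past its other end. No other gene was closer to the peak. The next protein-coding gene, SLC7A10, an amino acid transporter gene, lay 57.8 kb away.

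The CEBPA peak is at the narrow end of its list. No listed peak was narrower than 310 bp, 20 of 873 had this width, and the median was 341 bp. It stood in place 725 of 873 in deposited order, whereas the peaks of the 5 genes with the element stood in places 7 to 102. What the order stands for is not stated. The next listed peaks on chromosome 19 lay 1.58 Mb to one side and 2.82 Mb to the other, so no cluster of peaks surrounds it.

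CEBPG lies on the far side of CEBPA from this peak. It encodes a short C/EBP protein that lacks an activation domain and acts as a partner in bZIP pairs. The CEBPA peak was also the nearest to CEBPG, at 90.1 kb, and thus outside its window. Among the C/EBP genes, CEBPA at 16.3 kb is the only one inside the limit of 50 kb. CEBPG at 90.1 kb is the next nearest, and neither is close to the limit. The peak counted for both where windows of 100 kb to each side were used.

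**Figure D1:**
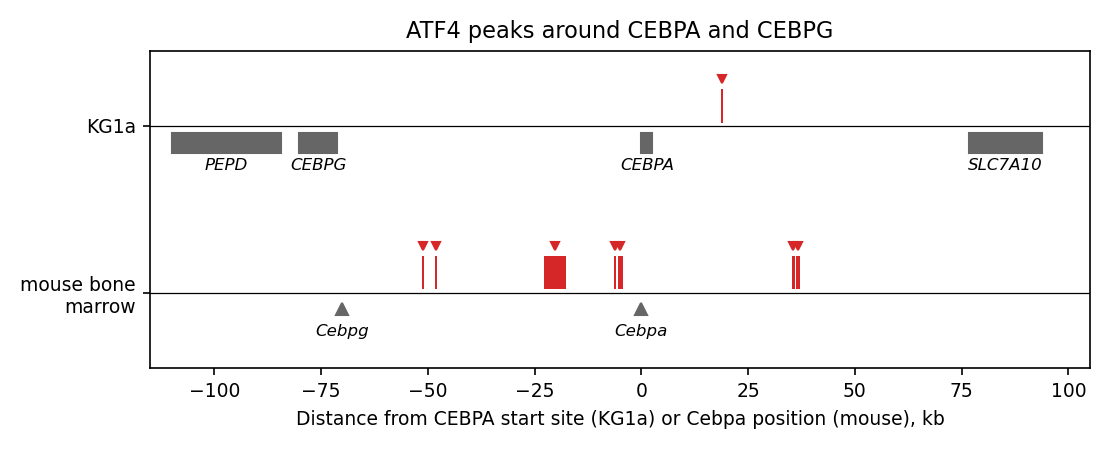
Map of ATF4 peaks (red bars, drawn to scale, with a red mark above each) around CEBPA in KG1a (top) and around the Cebpa position in mouse bone marrow (bottom), by distance in kb. Grey bars are human genes, grey triangles are approximate mouse gene positions, and both rows are turned so that CEBPG is at the left. The KG1a row holds 1 peak, 18.9 kb to the right of the CEBPA start, and the mouse row holds 7 peaks, of which 5 lie between the positions of Cebpg and Cebpa.

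The 4 other genes were far from any KG1a peak. CEBPE, which is needed for the last steps of granulocyte maturation, had its nearest peak at 0.655 Mb, chr14:22461917-22462289. CEBPZ had it at 1.09 Mb, chr2:38319157-38319497. CEBPB, a factor of macrophages and of granulocyte production in infection, had it at 1.27 Mb, chr20:51464014-51464354. CEBPD, an inflammation-induced member, had it at 4.27 Mb, chr8:52011977-52012409. All 4 windows held 0 peaks, and so did the gene spans of their neighbours, among them EIF2AK2 beside CEBPZ. These spans overlap the empty windows, and some, such as that of EIF2AK2, lie mostly outside them. None reaches as far as the nearest peak of its C/EBP gene, so 0 follows from the distances above and is no separate result. The share of all genes with a peak in the span alone was not computed. EIF2AK2 encodes PKR, a kinase whose activity raises ATF4 translation. SLC7A8, an amino acid transporter gene beside CEBPE, likewise held 0 peaks.

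A peak in the span plus 50 kb was found for 1 of 6 C/EBP genes, against 6.25% of all 20037 protein-coding genes (1252 genes). The share was 4.6% among the 5694 genes shorter than 10 kb, which 5 of the 6 members are, and 7.17% among the 1451 genes of chromosome 19. With 6 genes, 1 peak is the smallest count above 0 and shows no excess. The count was 0 of 6 with 10 kb to each side, against 3.15% of all genes, 2 of 6 with 100 kb, against 9.93%, and 2 of 6 with 250 kb, against 19.2%, where both genes share the CEBPA peak. The median distance to the nearest peak was 871 kb over the 6 genes and 961 kb over the 19974 genes on chromosomes with a peak. Of those 19974 genes, 3.72% had a nearer peak than CEBPA, 9.21% than CEBPG, 39.1% than CEBPE, 54.0% than CEBPZ, 58.8% than CEBPB and 87.9% than CEBPD.

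**Figure D2:**
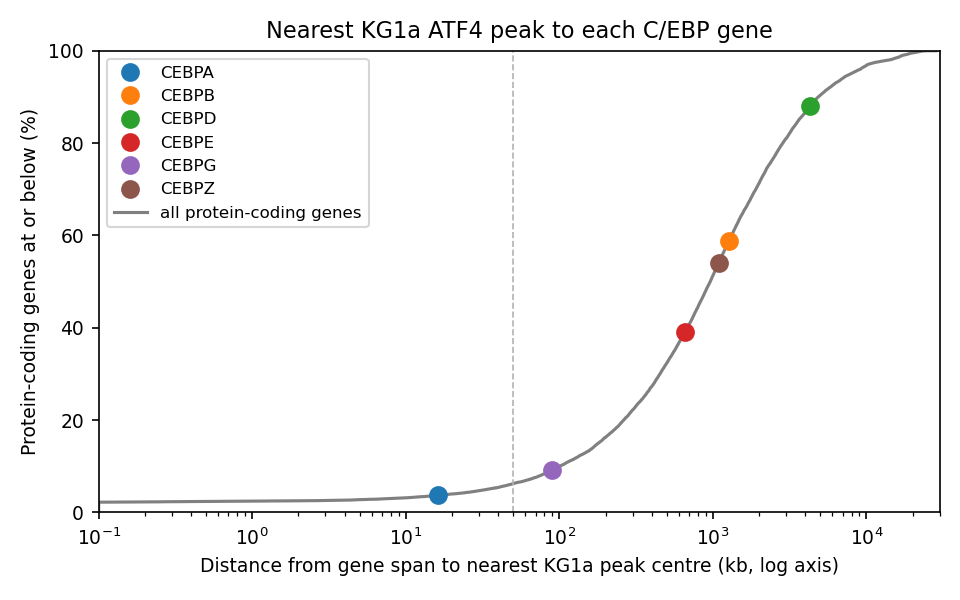
Distance in kb (log axis) from each C/EBP gene to the nearest KG1a peak centre (coloured points) on the cumulative curve of all 19974 protein-coding genes on chromosomes with a peak (grey). The dashed line marks 50 kb. CEBPA at 16.3 kb is the only point left of it, CEBPG at 90.1 kb is next, and the other 4 lie between 655 kb and 4.27 Mb, on the middle and upper parts of the curve.

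The other bZIP genes, a list of 48, held 4 peaks at 3 genes. This is 6.25% of the list, the same share as over all genes. With 10 kb to each side it was again 3 of 48 genes, 6.25%, against 3.15% of all genes, and with 100 kb 6 of 48, 12.5%, against 9.93%. ATF3, a stress-induced repressor and relative of ATF4, had a peak inside the gene span at chr1:212608462-212608889, in place 22 of the list. Its centre was 6.34 kb from the nearest start with a promoter sequence. Starts without such a sequence were not considered, so the peak may lie at another start of ATF3. NRL, a factor of photoreceptors, had 2 peaks, of which the nearest to a start of NRL was chr14:24093741-24094241, 1.14 kb away and in place 18. Other genes in the windows of these bZIP genes were not looked up, so a peak counted here may lie at another gene. DBP, a factor of circadian output, had a peak 9.13 kb outside the gene at chr19:48646337-48646692. The peaks at ATF3, NRL and DBP named here were 428, 501 and 356 bp wide, against a median of 341 bp over the KG1a list. The difference between the C/EBP genes and the other bZIP genes was not tested.

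Of 24 partner, regulator and target genes of C/EBP factors, 0 had a KG1a peak in the span plus 50 kb, against 6.25% of all genes. The nearest were TRIB3 at 58.3 kb, CAMP at 75.7 kb and CSF3R at 79.4 kb. TRIB3 encodes a pseudokinase induced by ATF4, CAMP an antimicrobial peptide of neutrophils and CSF3R the receptor for granulocyte colony-stimulating factor. The peak nearest to CSF3R, chr1:36386415-36386923, lay outside its window and was in place 9 of 873. Genes nearer to that peak were not looked up. The median distance was 783 kb over these 24 genes and 761 kb over the 48 other bZIP genes, both below the 961 kb of all genes. A list of 24 with 0 genes is too short to show a deficit at this background.

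The comparison of mouse bone marrow ATF4 ChIP with its input asks the same of blood-forming tissue. All 3 C/EBP positions had peaks within 50 kb, 7 at Cebpb, 6 at Cebpa and 3 at Cebpg. At least 1 peak was found in 77.5% of the 27168 windows of 100 kb laid end to end along the mouse chromosomes, so having a peak sets no position apart. The windows of Cebpa and Cebpg overlap, and 2 peaks count for both, which leaves 14 different peaks. All positions below are on GRCm38, and the gene positions are rounded to 10 kb. Strand, exons and gene ends were not used for mouse.

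At Cebpa, placed at 35.12 Mb on chromosome 7, the peaks fell into 4 places. The widest of the 14 peaks, chr7:35097193-35102388, is 5196 bp long and was centred 20.2 kb on the Cebpg side. Only 1.23% of all mouse peaks were wider, and it stood in place 3314 of 83088. A pair of 445 and 1004 bp at chr7:35113563-35114007 and chr7:35114604-35115607 was centred 6.21 and 4.89 kb from the position. These were 596 bases apart and stood near the end of the list, in places 82590 and 76425.

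A second pair lay on the side of Cebpa away from Cebpg. Its peaks, chr7:35155290-35155929 and chr7:35156206-35157056, are 640 and 851 bp wide, are 276 bases apart and were centred 35.6 and 36.6 kb from the position. They stood in places 13717 and 25427, ahead of the pair next to the gene. As background, a myeloid enhancer of Cebpa is known on the downstream side of the gene in mouse. Whether this pair lies in it was not tested. The last of the 6 peaks, chr7:35071598-35072096, was 499 bp wide and 48.2 kb away, just inside the limit. The peak just outside, 287 bp wide, was 51.1 kb away.

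The Cebpg position, 35.05 Mb on chromosome 7, sat in a stretch with no peak. From 34991924 to 35068735, which is 76.8 kb, the list held none, and 11.7% of the 82972 stretches between neighbouring mouse peaks were longer. The median stretch was 7.54 kb. Of all bases between peaks, 57.4% lay in stretches longer than this, so such a stretch is a common surrounding for a base. The nearest peaks were 18.9 and 21.8 kb away on the Cebpa side, chr7:35068736-35069022 (287 bp) and chr7:35071598-35072096 (499 bp). The third was the peak of 5196 bp, at 49.8 kb, just inside the limit. On the other side the first peak lay 58.2 kb away, just outside it, in a group of 6 peaks of 299 to 2503 bp between 34974747 and 34991923.

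Cebpb, placed at 167.69 Mb on chromosome 2, had peaks to both sides of an empty stretch of 38.2 kb that holds the position. Cebpa also sat in such a stretch, of 39.7 kb. Of all bases between mouse peaks, 80.9% lay in stretches longer than that of Cebpb and 79.9% in stretches longer than that of Cebpa. On the low side were 3 close peaks of 1124, 1609 and 677 bp, at chr2:167675923-167677046, chr2:167677685-167679293 and chr2:167679720-167680396, centred 13.5, 11.5 and 9.94 kb away. They were 638 and 426 bases apart. A narrow peak of 282 bp lay 22.1 kb away, and 94.2% of mouse peaks were wider than it. On the high side were peaks of 1026, 429 and 2497 bp, centred 29.1, 32.7 and 37.5 kb away, the last at chr2:167726231-167728727. None lay between 37.5 and 87.1 kb on that side, where a peak of 7483 bp at chr2:167773363-167780845 followed. It is outside the window, and 0.388% of mouse peaks were wider.

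**Figure D3:**
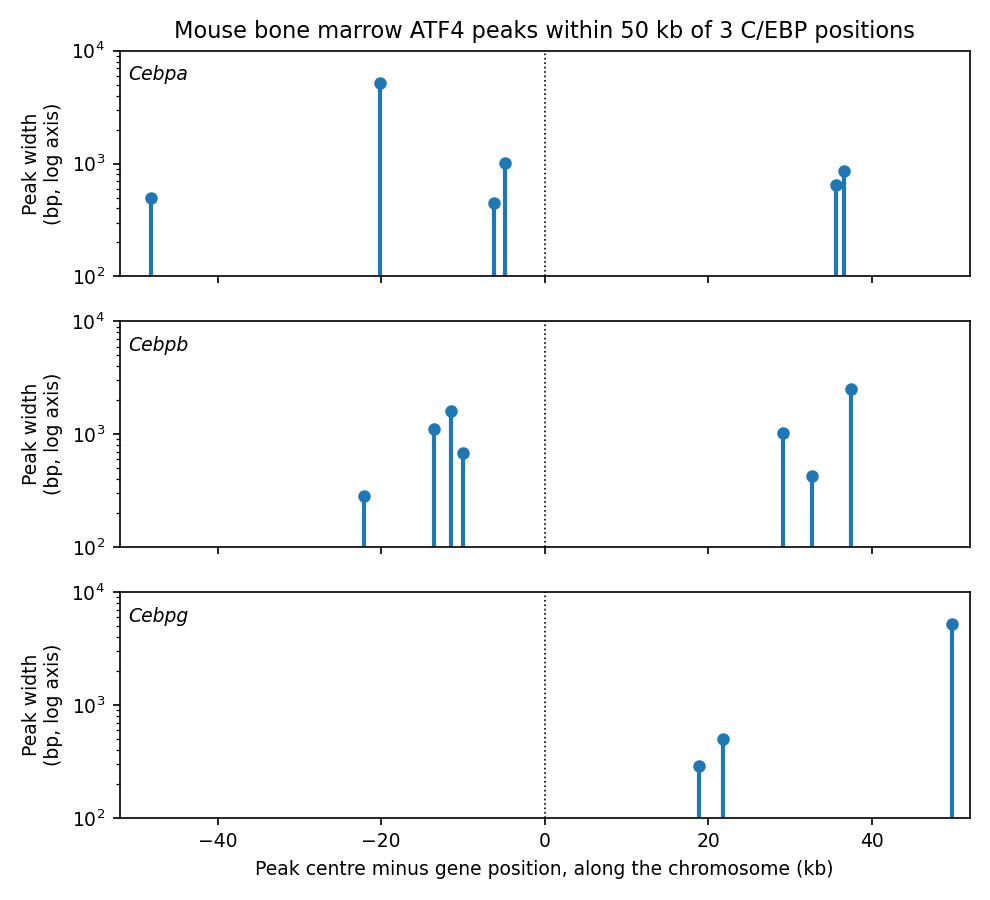
Mouse bone marrow ATF4 peaks within 50 kb of Cebpa (top), Cebpb (middle) and Cebpg (bottom), with distance of the peak centre from the gene position in kb on the horizontal axis and peak width in bp on a log axis. The dotted line is the position, rounded to 10 kb. Cebpa and Cebpb have peaks to both sides, Cebpg has its 3 to the right alone, and the tallest stem, 5196 bp, appears for both Cebpa and Cebpg.

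The 3 positions differed in how near the closest peak was. Its centre lay 4.89 kb from Cebpa, 9.94 kb from Cebpb and 18.9 kb from Cebpg. Positions taken every 10 kb along the chromosomes had a median of 19.4 kb, and 18.7%, 32.0% and 49.2% of them were nearer to a peak than Cebpa, Cebpb and Cebpg, in this order. With positions rounded to 10 kb, the value for Cebpa cannot tell a peak at the gene from a peak beside it. The value for Cebpb is close to the full rounding step. As its position is approximate and gene ends were not used, its distance from the gene itself is also uncertain.

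Peak counts at Cebpa and Cebpb were above the median of the tiled windows. At least 6 peaks, as at Cebpa, were found in 18.5% of the 27168 windows, at least 7, as at Cebpb, in 13.1%, and at least 3, as at Cebpg, in 47.9%. The median window had 2 peaks and the middle 50% had 1 to 5. On chromosome 7 and on chromosome 2 the median was 3, and 18.1% of windows on chromosome 7 held more peaks than Cebpa, while 12.2% on chromosome 2 held more than Cebpb. Windows over assembly gaps and gene-poor stretches are part of this background. Mouse genes as a whole were not placed, so it is unknown whether these values differ from those of other genes.

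Bases under peaks were also fewest at Cebpg, and most at Cebpa. Peaks covered 8635 bases, or 8.63%, of the Cebpa window, 7644 bases, or 7.64%, of the Cebpb window and 3594 bases, or 3.59%, of the Cebpg window. The median window had 1547 covered bases, and 7.03%, 9.1% and 27.6% of windows had more than Cebpa, Cebpb and Cebpg. The peak of 5196 bp supplied most of the cover at Cebpa and, through the part of it that reaches into the window, at Cebpg.

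**Figure D4:**
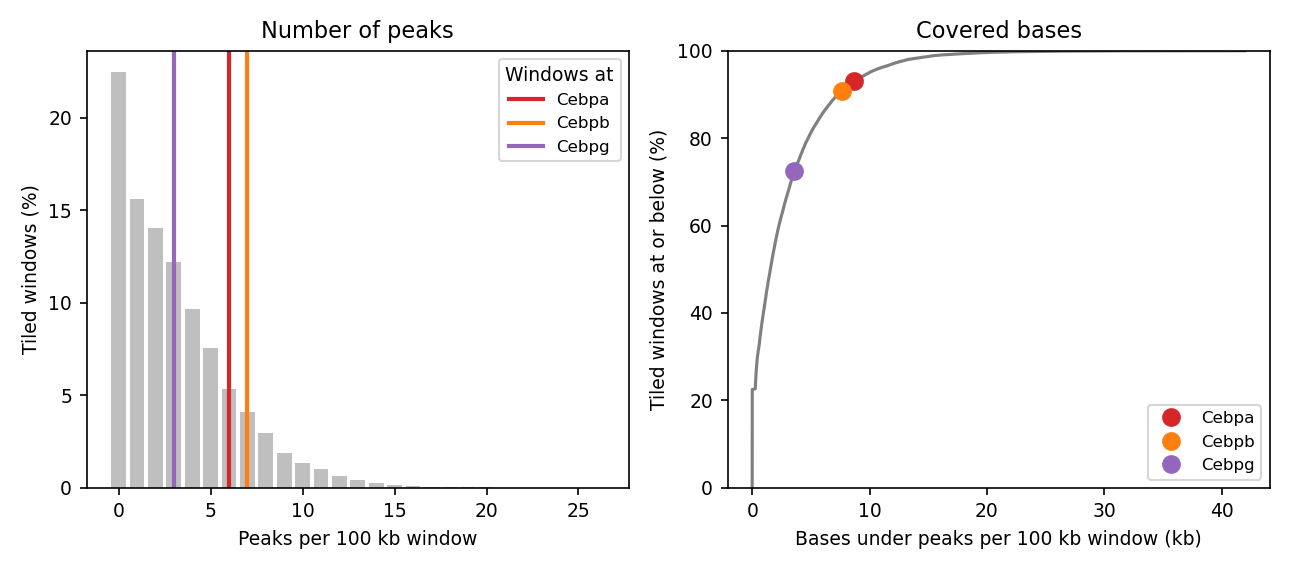
Left, share of the 27168 mouse windows of 100 kb (grey bars, %) by number of peaks, with lines at 6 for Cebpa, 7 for Cebpb and 3 for Cebpg. Right, cumulative share of windows (%) by covered kb (grey curve), with points at 8635 bases for Cebpa, 7644 for Cebpb and 3594 for Cebpg; all 3 lie above the median of 1547 bases.

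The order of the 3 positions depended on the size of the window. With 10 kb to each side, Cebpa had 2 peaks, Cebpb 1 and Cebpg 0, where 33.1% of windows of 20 kb held at least 1. With 100 kb to each side, Cebpb had 14 peaks, Cebpg 11 and Cebpa 7, against a median of 5 over all windows. That median was 7 on chromosome 7, which holds Cebpa and Cebpg, and 6 on chromosome 2. Cebpb and Cebpg gained 7 and 8 peaks between 50 and 100 kb and Cebpa gained 1. The windows of Cebpa and Cebpg share peaks at this size, and the 3 windows held 27 different peaks. Those gained by Cebpg include the pair next to Cebpa, and the 1 gained by Cebpa is the peak nearest to Cebpg. At Cebpg the 0 peaks within 10 kb and the 3 within 50 kb were the fewest of the 3 positions but not low for the genome, where the medians were 0 and 2.

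**Figure D5:**
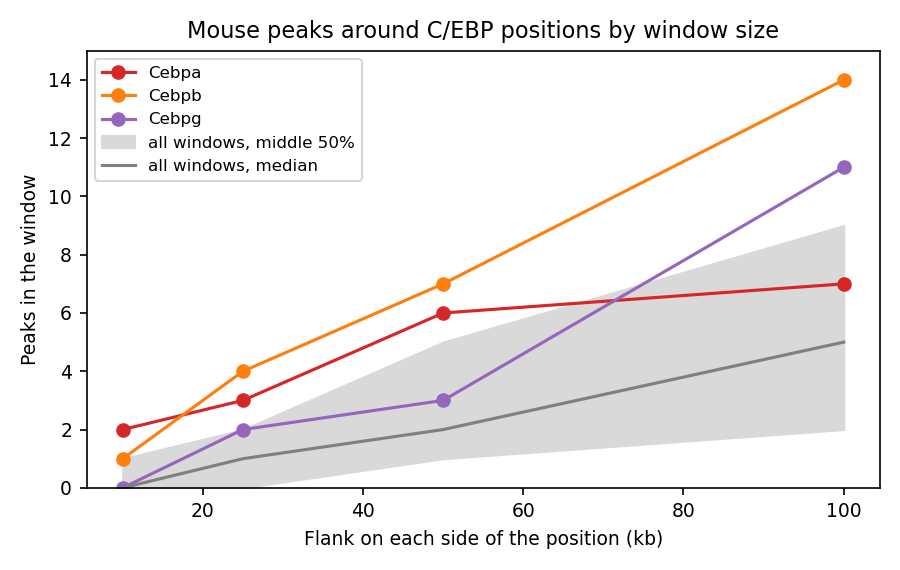
Number of mouse peaks in windows reaching 10, 25, 50 and 100 kb to each side of Cebpa, Cebpb and Cebpg (coloured points and lines), with the median (grey line) and middle 50% (grey band) of all windows of the same size. Cebpg moves from 0 at 10 kb to 11 at 100 kb, while Cebpa moves from 2 to 7 and falls within the band at 100 kb.

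The 14 peaks were somewhat wider than the list. Their median width was 764 bp, with a range of 282 to 5196 bp, against a median of 544 bp over all 83088 peaks. Of the 14, 6 (42.9%) were wider than 1 kb, against 24.2% of the list. By position, the median was 1026 bp at Cebpb, 745.5 bp at Cebpa and 499 bp at Cebpg. In deposited order the 14 ran from place 3314 to place 82590, and 3 of them stood in the first 25% of the list.

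Set side by side, the Cebpa neighbourhood had 6 peaks in mouse marrow and CEBPA had 1 in KG1a within 50 kb. The lists differ in length, 83088 peaks in mouse marrow against 873 in KG1a, and no peak can be called gained or lost between them. The KG1a peak and the mouse pair at 35.6 and 36.6 kb lay on the same side of the gene, the side away from CEBPG. Their distances differ, the sequences were not aligned, and the next KG1a peak on that side was 1.58 Mb farther along. Species, cell source and library differ together between the lists and cannot be told apart.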

How the data were processed

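ATF4 ChIP and input libraries of KG1a cells and mouse bone marrow gave 1 peak list each. The submitters' processing notes name Bowtie2, MACS2, deepTools and CASAVA 1.4, and the builds GRCh38 and GRCm38. Settings, peak threshold and depth are unstated there. The authors deposited 3 columns, chromosome, start and end, with no count or score. Starts were read as counted from 0 and are printed counted from 1.

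Peaks overlapping a gene span plus 50 kb were taken, from RefSeq genes (GRCh38.p14) for KG1a and from approximate positions for mouse. Strand and start came from RefSeq promoters. The planned count of motifs in peaks was not run, as only promoter sequences were used. With 1 library per group no test was made. Counts are set beside 20037 protein-coding genes or tiled mouse windows. Python 3.11.15, numpy 2.4.6 and pandas 2.3.3 were used, and the code was tested on simulated data. Every C/EBP gene is named, with bZIP and partner genes that had a peak in the window or were among the 3 nearest of their list. Members and lists were chosen with earlier results of these data known. Alternatives were other flanks, the widest 25% of peaks, peak centres, merging of peaks under 1 kb apart and, added after the data were seen, moved positions.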

Additional observations from a re-analysis of the deposited data

How the results depend on the processing

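No paired analysis was possible because each group has 1 library. In KG1a, 1 peak at 1 C/EBP gene became 0 peaks at 0 genes with a flank of 10 kb, as the CEBPA peak lies 16.3 kb from the gene, and in the widest 25% of the list, as it is 310 bp wide. With 100 kb or 250 kb it was 1 peak at 2 genes, CEBPA and CEBPG, where 9.93% and 19.2% of all genes have a peak. The median distance of 871 kb became 3280 kb in the widest 25%. Other bZIP genes with a peak numbered 6 at 100 kb and 8 at 250 kb in place of 3, and partner genes 3 and 5 in place of 0. In mouse, 14 peaks covering 16566 bases became 3 peaks and 1846 bases at 10 kb, 9 and 11123 at 25 kb, 27 and 31986 at 100 kb, and 6 and 12456 in the widest 25%. Merging peaks under 1 kb apart left 10. Moving the 3 positions by up to 10 kb, chosen after the data were seen, gave 14 or 15 peaks and up to 16865 bases. Cebpa then had 7 peaks when moved by -5 or -10 kb and 5 when moved by 5 or 10 kb. The count of 5 is the upper limit of the middle 50% of windows. Cebpb kept 7 peaks throughout, and Cebpg had 2 when moved by -5 kb and otherwise 3. Depth and peak height are unknown, so weak binding below the lists' threshold cannot be seen.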
